A study of Mus musculus with 30 samples.

Results

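The data describe how CpG methylation around the 5′ end of Xist, and at the pericentromeric Major Satellite repeat, changed when mouse embryonic stem cells (ESCs) without doxycycline (Dox) were differentiated for 2 days. The comparison was defined by its labels, with earlier results of these data known. It takes 6 of the 30 libraries of the series, 3 of undifferentiated cells and 3 of day 2 cells. All 6 came from XXdXIC-Cast (clone A6), a single clone of TX1072, itself a female hybrid line of CAST x C57BL/6 genotype. Every library of both groups therefore carries the same deletion around the Xist locus, X:103183145-103955698, which spans all Xist amplicons; the labels do not make clear on which allele it lies, so the allele behind the levels is not known. ESCs were kept in medium with serum, LIF and 2 kinase inhibitors (2i), and day 2 cells had been without 2i and LIF for 2 days on fibronectin. The Xist promoter on the B6 allele of TX1072 responds to Dox, and neither group received it. Whether the numbered replicates were separate cultures, and whether ESCs and day 2 cells were grown in parallel, is not stated, so the p-values describe spread among these libraries, which may be technical. The libraries hold DNA only, so the labelled cell state could not be set against marker genes.

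Xist is the long non-coding RNA that coats and silences an X chromosome in female cells, and Tsix is transcribed antisense to it across its promoter. CpG methylation is placed on DNA by de novo methyltransferases and copied at replication; ESCs in 2i have low methylation genome-wide and regain it when they leave the naive state. YY1 is a zinc-finger transcription factor that also contacts RNA, its binding is known to be sensitive to methylation of the CpG in its core, and it has been linked to Xist promoter activity and to tethering of Xist RNA. Major Satellite is the AT-rich tandem repeat next to mouse centromeres and is normally heavily methylated in differentiated cells.

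The sequences below are those whose methylation was compared (GRCm38, the assembly also called mm10). The Xist regions are printed on the minus strand, on which Xist is transcribed, and each CpG is in capitals. The upstream region, X:103483345-103483491, holds 6 CpGs at 123 to 201 bp before the Xist 5′ end, inside exon 4 of the Tsix transcript Tsix-201. The CpG-island stretch shown, X:103482059-103482355, holds the island's 23 CpGs, and the YY1-motif amplicon, X:103481727-103482006, holds 9; both lie in Xist exon 1 and within exon 4 of Tsix-201. The satellite sequence is the stretch read most deeply, in the copy at 2:98666765-98666862 on the plus strand.
upstream: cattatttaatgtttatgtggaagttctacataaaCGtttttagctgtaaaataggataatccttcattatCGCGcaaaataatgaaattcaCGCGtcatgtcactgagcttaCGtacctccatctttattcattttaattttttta
CpG island: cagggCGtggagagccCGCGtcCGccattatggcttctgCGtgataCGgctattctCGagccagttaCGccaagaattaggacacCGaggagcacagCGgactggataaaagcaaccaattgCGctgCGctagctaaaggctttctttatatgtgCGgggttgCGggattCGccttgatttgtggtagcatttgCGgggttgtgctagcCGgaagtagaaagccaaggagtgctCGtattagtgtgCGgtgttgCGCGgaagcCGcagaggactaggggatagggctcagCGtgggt
YY1 motifs: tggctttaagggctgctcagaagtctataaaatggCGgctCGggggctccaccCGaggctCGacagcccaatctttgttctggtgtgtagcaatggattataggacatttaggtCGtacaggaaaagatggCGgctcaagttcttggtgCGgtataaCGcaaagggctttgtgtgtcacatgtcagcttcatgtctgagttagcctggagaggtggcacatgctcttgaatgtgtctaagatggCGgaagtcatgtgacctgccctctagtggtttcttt
Major Satellite copy: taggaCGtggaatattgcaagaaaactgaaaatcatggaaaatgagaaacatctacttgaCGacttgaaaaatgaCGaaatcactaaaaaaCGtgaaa

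The core letters of the YY1 motif, ATGGCG or its reverse complement CGCCAT, were searched on both strands, and 4 matches contain a CpG that was read. They are shown with the core in capitals because methylation inside the core is the measurement that names the amplicon.
X:103481754-103481773: gtctaagATGGCGgaagtca
X:103481867-103481886: ggaaaagATGGCGgctcaag
X:103481963-103481982: ctataaaATGGCGgctcggg
X:103482321-103482340: ccgcgtcCGCCATtatggct
The YY1-motif amplicon holds 3 matches in 280 bases, whereas 7.37% of 32851 RefSeq promoter windows of that length (GRCm38) hold at least 1. The island stretch holds 1 match in 297 bases, against 8.75% of windows of that length, and the upstream region holds 0 in 147 bases, against 3.33%. The YY1-motif amplicon is named for these motifs, so its matches were fixed in advance. The windows were the first bases of each promoter sequence and were not matched for CpG content or position. A match is a description of the letters and not a binding site.

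Day 2 replicate 2 was far shallower than the rest. The number of CpG calls, counted as reads times CpGs, was 865181 to 1444494 in the other 5 libraries and 10927 in that library. Reads per CpG in the 5 deep libraries ran from 23549 to 57434 upstream, from 19169 to 34213 at the YY1 motifs and from 82 to 6181 in the island. In day 2 replicate 2 they ran from 57 to 84 upstream, from 41 to 129 at the YY1 motifs and from 1 to 30 in the island, where 1 of 23 CpGs reached the minimum of 20 reads, so that library gives no island level. Its satellite calls also differed: the minus strand held 67.3% of them, and 17.5% to 19.6% in the others. Values below are therefore given with and without it. The amplicon across the Xist start site, X:103483101-103483344, had 65 to 393 reads per CpG even in the deep libraries. Reads carry no molecular identifiers, so exact binomial (Clopper-Pearson) 95% intervals cover counting error only.

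A rise in methylation passed in 4 of the 5 amplicons, and among these its size fell into 2 classes. With or without replicate 2 it was 42.7 points or more at the upstream promoter and the satellite. At the CpG island and the YY1 motifs it was 9.46 points or less. The start site, described below, differed by 13.6 points, between these classes, and did not pass. Upstream, the ESC libraries read 10.8%, 11.4% and 13.0% and the day 2 libraries 55.6%, 57.3% and 53.2% in the order of their replicate numbers. At the satellite, ESCs read 26.8%, 27.4% and 29.9% and day 2 cells 70.4%, 75.8% and 71.2%. In both regions every day 2 library lay far above every ESC library, and the shallow replicate 2 was the highest of its group. In the CpG island, ESCs read 2.77%, 2.81% and 3.11%, and day 2 replicates 1 and 3 read 10.1% and 11.3%. At the YY1 motifs, ESCs read 1.36%, 1.34% and 1.40%, and day 2 cells 8.29%, 16.2% and 7.95%. The groups did not overlap in the island or at the YY1 motifs, but replicate 2 stood well above the other day 2 libraries at the YY1 motifs.

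**Figure D1:**
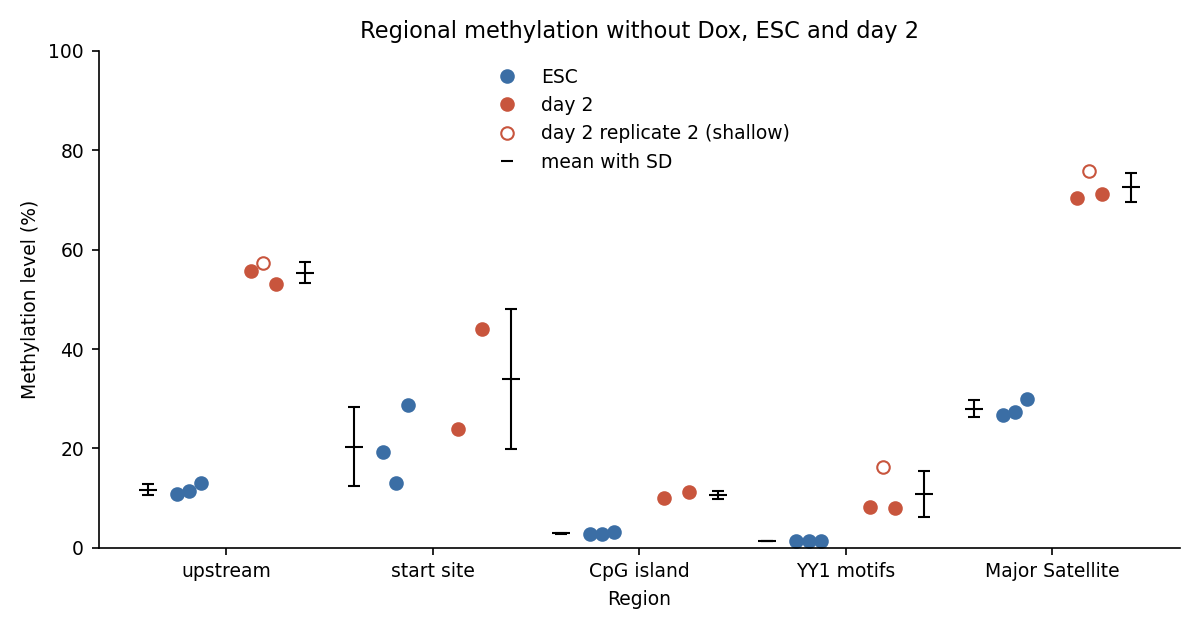
Methylation level (vertical axis, %) of each region (horizontal axis) in the 3 ESC and up to 3 day 2 libraries without Dox; points are libraries, the open circle is the shallow day 2 replicate 2, and bars are the mean with SD. Day 2 points lie above all ESC points in every region but the start site, at 53.2% to 57.3% upstream and at 70.4% to 75.8% in the satellite.

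The upstream gain was 43.6 points (95% interval 41.1 to 46.2), from 11.7% ± 1.15 to 55.4% ± 2.09 (SD, n = 3 each; limma, adjusted p = 2.63e-10 by Benjamini-Hochberg over the 5 regions). The satellite gained 44.5 points (41.0 to 48.0), from 28.0% ± 1.68 to 72.5% ± 2.93 (n = 3 each, limma adjusted p = 3.06e-09). The island gained 7.79 points (4.65 to 10.9), from 2.89% ± 0.186 (n = 3) to 10.7% ± 0.828 (n = 2, limma adjusted p = 1.56e-07). The YY1 motifs gained 9.46 points (4.66 to 14.3), from 1.37% ± 0.0282 to 10.8% ± 4.69 (n = 3 each, limma adjusted p = 2.38e-06). Without replicate 2 the YY1 level at day 2 was 8.12% ± 0.243 and the gain 6.75 points (limma adjusted p = 7.54e-09). Leaving that library out made the gain 42.7 points upstream and 42.8 points at the satellite, and both still passed. An exact two-sided permutation test cannot go below p = 0.1 with 3 against 3 libraries, nor with 3 against 2 in the island, and it gave that value in all 4 regions.

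The start-site amplicon did not pass. ESC libraries read 19.2%, 13.0% and 28.8% and day 2 replicates 1 and 3 read 24.0% and 43.9%, so the groups overlapped. The difference was 13.6 points with a 95% interval from -10.6 to 37.9 (limma adjusted p = 0.296), which leaves a gain as large as that of the island undetectable at this spread. Gains at its 10 CpGs ran from 1.69 points at 103483256 to 26.2 points at 103483201, and 0 of 10 passed. Day 2 replicate 2 had 13 to 17 reads per CpG there, read 60% to 87.5% and is left out by the minimum of 20 reads. With a minimum of 5 reads it enters, and the gain was 27.6 points, which did not pass (limma adjusted p = 0.0796). The origin of the few start-site reads was not tested.

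Because ESCs and day 2 are the only stages without Dox, order here means the size of the gain by day 2 and not its timing. The difference between the gains of 2 regions was tested within libraries, over 6 pairs of regions, which leave out the start site. The pairs reuse the same regional levels, and limma pools their spread as if they were independent. Their p-values, also those on M-values below, may therefore be too small. In percentage points the order had 2 levels. The upstream gain exceeded that of the island by 34.9 points (SE 1.31, limma adjusted p = 2.10e-10) and that of the YY1 motifs by 34.2 points (SE 1.47, limma adjusted p = 2.10e-10). The satellite gain exceeded the island's by 35.0 points (SE 1.32) and the YY1 motifs' by 35.0 points (SE 1.34). Within each level no difference passed: upstream minus satellite was -0.843 points (95% interval -2.96 to 1.27, limma adjusted p = 0.399), and island minus YY1 motifs, over the libraries with both, was 1.04 points (-0.419 to 2.49, limma adjusted p = 0.172). The upstream and satellite pair depended on a single CpG: without 103483455, the outermost and least methylated of the upstream CpGs, upstream exceeded satellite by 5.58 points (limma adjusted p = 0.000368). Without day 2 replicate 1 the difference was -2.01 points and passed (limma adjusted p = 0.0258).

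Percentage points treat a rise from near 0 and a rise from mid-range alike, so the gains were also compared as M-values, the log2 ratio of methylated to unmethylated share with an offset of 0.005. On this scale the upstream region led with a gain of 3.17 (SE 0.09), followed by the satellite at 2.73 (SE 0.11), the YY1 motifs at 2.67 (SE 0.25) and the island at 1.84 (SE 0.11). The upstream gain exceeded the satellite's by 0.44 (limma adjusted p = 0.000198) and the island's by 1.27 (limma adjusted p = 1.78e-06). The YY1 motifs gained more than the island (island minus YY1 motifs -0.47, limma adjusted p = 0.000281), a pair that did not separate in percentage points. The size of this difference depended on the setting: it was -0.20 with an offset of 0.02 (limma adjusted p = 0.0211) and -1.03 with a minimum of 5 reads (0.0260), which lets replicate 2 into the island. At 5 reads the difference in points was -2.37 and did not pass (limma adjusted p = 0.404). Satellite minus YY1 motifs was 0.06 (95% interval -0.31 to 0.43, limma adjusted p = 0.714) with all libraries and 0.30 (limma adjusted p = 0.000957) without replicate 2. Upstream minus YY1 motifs was 0.50 (limma adjusted p = 0.0380) with all libraries and 0.81 (limma adjusted p = 1.95e-11) without replicate 2, and the call was lost under several other settings: without day 2 replicate 1 (0.33, limma adjusted p = 0.261) or 3 (0.37, 0.208), without ESC replicate 1 (0.44, 0.110) or 2 (0.49, 0.0784). On calls of both strands and without replicate 2 the order was thus upstream, satellite, YY1 motifs and island, with each neighbouring pair apart. The upstream lead over the satellite was not stable. With replicate 2 it was 0.18 on plus-strand calls alone (limma adjusted p = 0.0810) and 0.44 with all 30 libraries in the fit (0.0506), and neither passed.

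As a share of what was unmethylated in ESCs, day 2 cells had gained 61.8% at the satellite, 49.4% upstream, 9.59% at the YY1 motifs and 8.02% in the island. Without replicate 2, which has no island level, the shares were 59.5% at the satellite, 48.3% upstream and 6.85% at the YY1 motifs, so the island's 8.02% was then above the YY1 motifs. As a fold of the ESC level the order was another: 7.91-fold at the YY1 motifs, 4.72-fold upstream, 3.69-fold in the island and 2.59-fold at the satellite. Without replicate 2 the folds were 5.93 at the YY1 motifs, 4.64 upstream and 2.53 at the satellite. These ratios are given as descriptions with no test of their order.

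**Figure D2:**
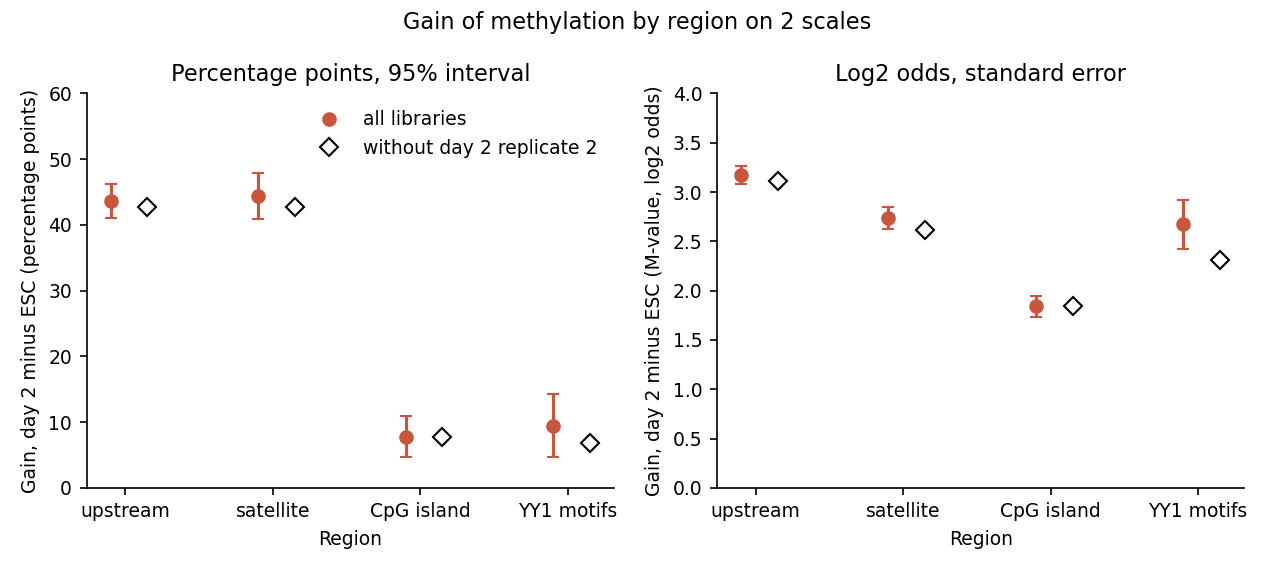
Gain from ESC to day 2 in the 4 regions whose rise passed, in percentage points (left) and as M-values, log2 odds (right). Bars are the 95% interval on the left and the standard error on the right. Filled circles use all libraries and open diamonds leave out day 2 replicate 2. Upstream and satellite lie at 43.6 and 44.5 points on the left, and on the right the island is lowest at 1.84 and the YY1 motifs move from 2.67 to 2.31 without that library.

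Of the 48 CpGs of the Xist amplicons 37 were higher at day 2 (77.1%) and 0 were lower (0%) at an adjusted p under 0.05 with limma, and at 41 (85.4%) all day 2 libraries lay above all ESC libraries. Called higher were 6 of 6 upstream, 22 of 23 in the island, 9 of 9 at the YY1 motifs and 0 of 10 at the start site. Without day 2 replicate 2 the same numbers held in each region, 37 in all (77.1%). Without day 2 replicate 1 or 3, 16 CpGs had enough reads and all 16 were higher. The CpGs of an amplicon sit on shared molecules, so these are not independent events.

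Upstream, the gain was largest at the CpG nearest to Xist and smallest at the farthest. CpG 103483377, 123 bp before the 5′ end, read 30.9%, 30.8% and 35.4% in ESCs and 90.5%, 92.2% and 89.5% at day 2, a gain of 58.3 points (M-value change 4.29, SE 0.13, limma adjusted p = 1.36e-09) and the largest of all 48 CpGs. This CpG was both the most methylated in ESCs and nearly fully methylated at day 2. The next 4 CpGs, at 142 to 165 bp, rose from 7.09% to 11.2% in ESCs to 51.3% to 63.5% at day 2. CpG 103483455, at 201 bp, read 1.04%, 1.19% and 1.19% in ESCs and 10.9%, 17.5% and 9.59% at day 2, a gain of 11.5 points (9.09 without replicate 2), and no ESC and day 2 values overlapped. Its gain was the smallest upstream in points and, on calls of both strands, the largest as a fold, 11.1-fold, or 8.98-fold without replicate 2. On plus-strand calls alone it gained 5.81 points (7.09-fold), or 4.38 points (5.59-fold) without replicate 2, when its fold lay below the 6.58-fold of 103483419. The 6 CpGs had the same order in ESCs and at day 2 (Spearman's rho 1.00, Pearson's r 0.876 over 6 CpGs of shared molecules, without replicate 2).

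In the island the CpGs started at 0.831% to 6.17% in ESCs and ended at 4.26% to 16.5%, with a median gain of 8.23 points. CpG 103482308 gained most, from 3.43%, 4.70% and 4.47% to 14.4% and 17.3%, a difference of 11.6 points (M-value change 1.99, SE 0.17, limma adjusted p = 5.84e-06). The only CpG outside the start site that did not pass was 103482199, at 3.25%, 0% and 4.76% in ESCs and 5.81% and 5.46% at day 2 (limma adjusted p = 0.243). It was read 86 to 238 times, and its groups did not overlap. It belongs to 5 neighbouring CpGs in mid-island, 103482184 to 103482232, chosen after their values were seen, that had 82 to 532 reads and gained 2.97 to 6.19 points (median 4.46). The other 18 had 2058 to 6181 reads and gained 4.49 to 11.6 points (median 9.68), so low depth and small gains coincide there, and the part of depth in this was not tested. Across the 23 CpGs the ESC and day 2 levels had a Spearman's rho of 0.815 and a Pearson's r of 0.800, over CpGs that share molecules and libraries.

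At the YY1 motifs the 9 CpGs stood at 0.870% to 2.46% in ESCs. Without replicate 2 the largest gain was at 103481965, which read 1.93%, 1.65% and 1.74% in ESCs and 13.1% and 12.4% in day 2 replicates 1 and 3 (gain 11.0 points), and the smallest was at 103481970, the CpG next to it, with 4.13 points. The ESC and day 2 levels had a Spearman's rho of 0.317 and a Pearson's r of 0.490 over these 9 CpGs without replicate 2. The difference of this from the island was not tested.

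The CpG inside each of the 4 YY1 cores rose. CpG 103481761 read 2.58%, 2.23% and 2.57% in ESCs and 9.88%, 13.2% and 9.80% at day 2 (limma adjusted p = 6.49e-07). CpG 103481970 read 1.02%, 0.953% and 1.13% in ESCs and 5.37%, 9.84% and 4.95% at day 2 (limma adjusted p = 6.91e-06). CpG 103482332 in the island read 2.64%, 3.50% and 3.75% in ESCs and 13.1% and 13.9% in day 2 replicates 1 and 3 (limma adjusted p = 3.55e-06). The groups did not overlap at any of the 4 cores. The same held for all 9 YY1-motif CpGs, all 23 island CpGs and 41 of all 48 CpGs (85.4%). Non-overlap thus does not set the cores apart. CpG 103481874 read 1.30%, 1.22% and 1.17% in ESCs and 6.73%, 31.1% and 5.96% at day 2, so that its gain was 13.4 points with replicate 2 and 5.12 points without it (limma adjusted p = 0.000982 and 1.97e-07). The 31.1% rests on 45 reads (95% interval 18.2% to 46.6%). Without replicate 2 the 3 cores of the YY1-motif amplicon gained 7.38, 5.12 and 4.13 points, in the order 103481761, 103481874 and 103481970, against a median of 6.83 points over the amplicon's 9 CpGs.

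The excess of day 2 replicate 2 at the YY1 motifs was uneven. At the 4 CpGs with 41 to 67 reads it read 16.4% to 31.1%, where day 2 replicates 1 and 3 read 5.67% to 8.69%. At the 5 CpGs with 98 to 129 reads it read 9.48% to 13.3%, where the other libraries read 4.95% to 13.1%. It was above the mean of the others at 9 of 9 YY1-motif CpGs and 5 of 6 upstream CpGs. Replicates 1 and 3 differed by at most 3.88 points, at 103483417, over the 38 CpGs outside the start site.

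**Figure D3:**
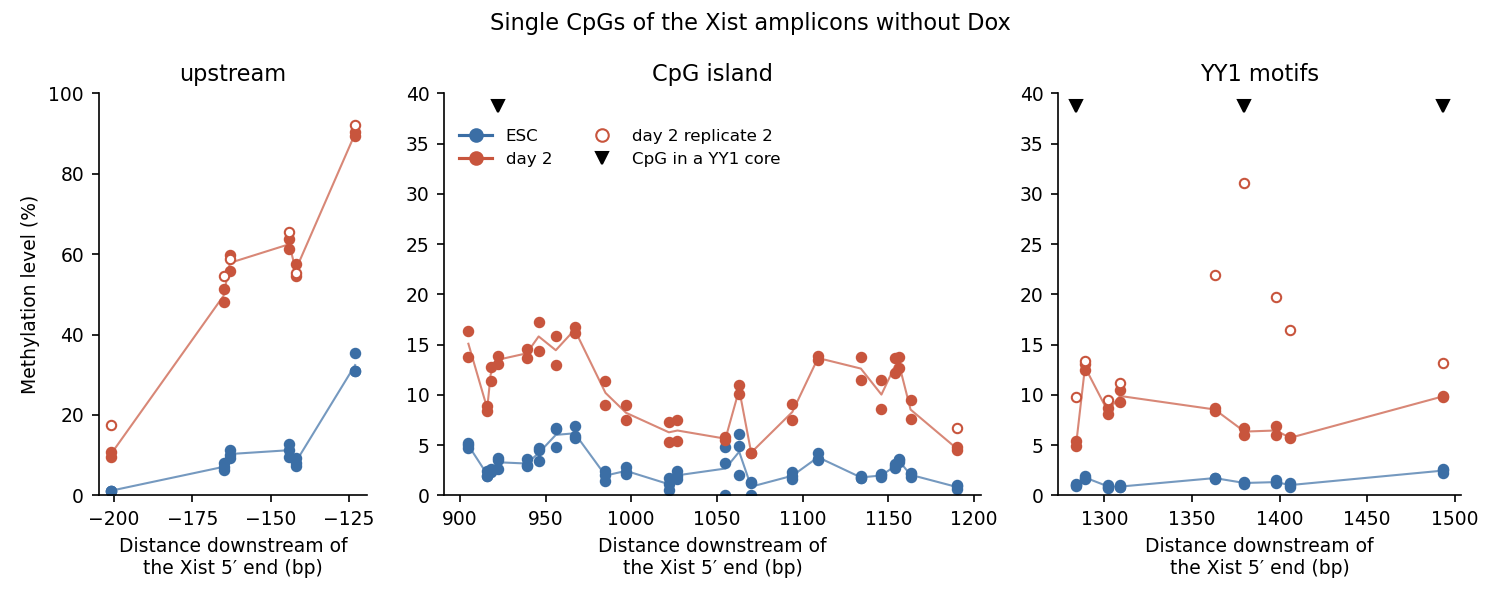
Methylation level (vertical axes, %, of different range) of single CpGs against their distance downstream of the Xist 5′ end (horizontal axes, bp; negative is upstream) in the upstream, island and YY1-motif amplicons; points are libraries with at least 20 reads, lines are group means without day 2 replicate 2, open circles are that replicate and triangles mark CpGs in a YY1 core. The upstream CpG nearest to Xist reaches 89.5% to 92.2% at day 2, and open circles reach 31.1% at the YY1 motifs.

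Upstream calls differed between the stages in strand as well. Calls assigned to the minus strand made up 0.532% to 0.794% of upstream calls in ESCs (mean 0.641% ± 0.136) and 11.0% to 15.5% at day 2 (13.1% ± 2.27, SD, n = 3 each), with no overlap. These calls were 99.4% to 100% methylated at every upstream CpG in all 6 libraries, and the YY1-motif, island and start-site amplicons had 0 such calls. On plus-strand calls alone, an alternative added after the data were seen, the upstream level rose from 11.2% ± 1.04 to 49.5% ± 1.19, a gain of 38.4 points. The region thus rose on plus-strand calls too, but the gain then lay 6.08 points below that of the satellite (upstream minus satellite -6.08, limma adjusted p = 0.000270), and its lead over the satellite in M-values was 0.18 and no longer passed (limma adjusted p = 0.0810). Its lead over the YY1 motifs in M-values, 0.24, did not pass either (limma adjusted p = 0.362). The outermost CpG, 103483455, had 95.8% to 96.2% of its neighbour's reads in ESCs and 74.0% to 80.5% at day 2. Where the minus-strand calls came from was not tested.

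**Figure D4:**
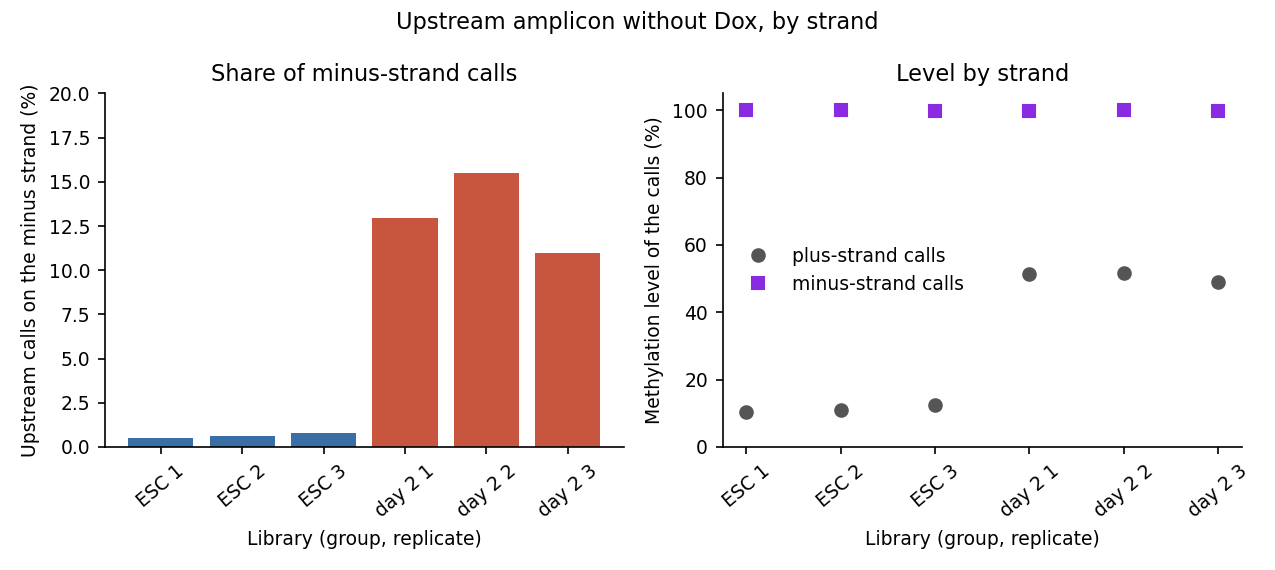
Upstream amplicon by strand in the 6 libraries (horizontal axes): the share of calls assigned to the minus strand (left, %) and the methylation level of the calls on each strand (right, %). Minus-strand calls rise from 0.532% to 0.794% in ESCs to 11.0% to 15.5% at day 2 and are nearly all methylated at both stages.

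The satellite gain appeared across the reference copies with enough reads, as the reads were assigned to them. Of 324 CpG positions, counted per copy, in 10 copies with enough reads, 316 were higher at day 2 (97.5%) and 0 lower (0%) with limma, and at 319 (98.5%) the groups did not overlap; the median gain was 44.0 points. Without day 2 replicate 1 or 3, 58 positions had enough reads and all 58 were higher. The copy at 2:98666145-98667732 held 74.2% of the calls pooled over the 6 libraries and read 28.9% in ESCs and 71.6% at day 2 without replicate 2. In day 2 replicate 2 the mix of copies differed. This copy held 2566 of its 9353 satellite calls, and the copy at 9:2999603-3038819, with 18.1% of the pooled calls, held 6179. In the stretch printed above its 4 CpGs rose, with replicate 2 included, from 34.1% to 82.2% at 98666770, from 25.9% to 68.4% at 98666825, from 35.7% to 79.7% at 98666840 and from 13.9% to 52.4% at 98666856, the last of them lowest at both stages. Without replicate 2 their day 2 levels were 81.2%, 66.3%, 79.0% and 50.5%. In all 10 copies with at least 20 calls in each deep library, day 2 replicates 1 and 3 lay above all ESC libraries, with gains of 9.18 to 50.2 points. The smallest was in a copy on X, X:75658295-75672942, from 2.40% to 11.6% on 23 to 35 calls. The copies are intervals of the reference, and some overlap, such as 2:98661835-98663393 and 2:98663242-98664491. Reads of near-identical copies may have been assigned to another copy, so single copies are uncertain and the 324 positions are not independent events. By strand, plus-strand calls read 27.1% to 30.2% in ESCs and 70.7% to 76.0% at day 2, and minus-strand calls 25.3% to 28.5% and 69.2% to 75.8%.

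The gain without Dox was smaller than the gain of the same line with 1 µg/mL Dox at all deep Xist regions and not detectably different at the satellite. Upstream the gain was 43.6 points without and 60.3 points with Dox, a difference of 16.7 points (95% interval 13.1 to 20.3, limma interaction adjusted p = 1.17e-05). In the island it was 7.79 and 38.2 points, a difference of 30.4 points (26.2 to 34.6, limma adjusted p = 3.79e-07). At the YY1 motifs it was 9.46 and 32.0 points, a difference of 22.6 points (15.8 to 29.4, limma adjusted p = 0.00178). At the satellite it was 44.5 and 43.6 points, a difference of -0.867 points (-5.82 to 4.08, limma adjusted p = 0.744). Without the shallow day 2 replicate 2 the difference was 17.7 points upstream, 25.3 points at the YY1 motifs and 0.808 points at the satellite. The ESC levels with Dox were 9.12% upstream, 2.78% in the island and 2.01% at the YY1 motifs, against 11.7%, 2.89% and 1.37% without. With Dox the minus-strand share of upstream calls was likewise higher at day 2, at 19.7% to 21.7% against 0.501% to 0.640% in ESCs.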

How the data were processed

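Amplicon bisulfite libraries of 5 amplicons (27 PCR cycles, 150 bp paired reads, on MiSeq, DNBSEQ G400 or Aviti) were compared. Trim Galore, SAMtools and mm10 are named in the submitters' processing notes; aligner and methylation caller: not given in the sources used here. Per the file headers, the deposited tables give the count of all and of methylated reads per CpG and strand. The deposited fraction matched the ratio of these counts to within 0.0005 and was otherwise unused. Positions were computed from contig names; all 48 Xist CpGs fell on a CG of GRCm38, and 17 table entries (CpG by library) outside the amplicons were left out. Genes are from GENCODE.

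CpGs needed 20 reads. A regional level is the unweighted mean over CpGs with 20 reads in each no-Dox library that has the region, meaning at least 50% of its CpGs; the satellite pools all copies. M-values (offset 0.005) were fitted with limma 3.58.1 (R 4.3.3) over the 12 XXdXIC libraries, 1 mean per group, with Benjamini-Hochberg adjustment within each family (5 regions, 6 pairs per scale, 48 CpGs, 324 satellite positions, 5 interactions) and a threshold of 0.05. Intervals in points come from the same model on percentages. Python 3.11.15, pandas 2.3.3, numpy 2.4.6, scipy 1.17.1 and matplotlib 3.10.9 did the rest. Only the single-CpG fit was tested on simulated data, for the Xist CpGs. The fits of regions, pairs of regions, satellite positions and interactions were not tested in this way. Named CpGs are those in a YY1 core, the largest and smallest gain per region and those of the deep amplicons that did not pass; others (103483455 as outermost, 103481965 without replicate 2, 103483417 and the satellite positions) were chosen after their values were seen. Members and lists were chosen with earlier results of these data known. Only CpGs are listed, so conversion was not checked. Alternatives were read minimums, offsets, the percent scale, other sets of libraries, a quasi-binomial model, the replicate number as a block and leaving out each library.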

Additional observations from a re-analysis of the deposited data

Results flagged for a closer look

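The gain on differentiation differed with and without Dox in 3 Xist regions, by 16.7 points upstream, 30.4 points in the CpG island and 22.6 points at the YY1 motifs, each by a limma interaction term. Apart from the levels, calls on the minus strand, which other Xist amplicons lacked, made up 13.1% of upstream calls at day 2 (mean of 3 libraries) against 0.641% in ESCs. Their source was not tested.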

How the results depend on the processing

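The regional gains kept their direction and their side of the threshold in all 75 alternative values that could be computed, and so did the 36 differences between the gains with and without Dox. The count of CpGs higher at day 2 was 35 to 39 over settings that used all libraries, and 16 to 37 when a library was left out. It was 16 where day 2 replicate 1 or 3 was missing, because fewer CpGs then had 20 reads in 2 libraries; the island and the start site could not be tested there. For satellite positions the count was 132 of 132 with a minimum of 100 reads and 58 to 316 when a library was left out.

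The order in M-values was less stable. Upstream minus YY1 motifs, 0.50 with all libraries, no longer passed with a minimum of 5 reads (0.50, limma adjusted p = 0.0516), with the 6 no-Dox libraries alone (0.50, 0.118), with all 30 libraries (0.50, 0.0685) or on plus-strand reads (0.24, 0.362), was 1.00 with an offset of 0.02 (0.000309), and was 0.33 to 0.81 when a library was left out. With all 30 libraries, upstream minus satellite (0.44) and island minus YY1 motifs (-0.47) missed the threshold (limma adjusted p = 0.0506 for both), and on plus-strand reads upstream minus satellite was 0.18 (0.0810). Satellite minus YY1 motifs passed at 100 reads or more (0.30, limma adjusted p = 0.00105) and with an offset of 0.02 (0.63, 0.00174), and was -0.088 to 0.30 when a library was left out. At 100 reads day 2 replicate 2 has no YY1-motif level, so for this pair that setting gives the same difference as leaving the library out. In percentage points, upstream minus satellite changed sign to 5.58 without the outermost upstream CpG (limma adjusted p = 0.000368), was -6.08 on plus-strand reads (0.000270), and was -2.01 to -0.147 when a library was left out. Plus-strand reads alone and the upstream region without its outermost CpG were chosen after seeing the data. Except where stated, the cause was not tested.

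With the replicate number as a block, 37 CpGs and 314 satellite positions were higher, and no call on regional gains, pairs of regions or Dox changed. Whether same-numbered libraries pair could not be decided. Their deviations from the group means over 16 CpGs correlated at -0.253, 0.515 and 0.686, and not every library correlated best with its own number. The day 2 mean includes the shallow replicate 2, which lay up to 24.8 points above the mean of the others. The other day 2 libraries differed by at most 3.88 points, so their deviations from that mean resemble each other whatever the pairing.

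Depth limits the start site and day 2 replicate 2. With 2 day 2 libraries in the island and at the start site, and 3 elsewhere, the spread is poorly known. The limma tests borrow it from the other groups of the line and from the regions, pairs or CpGs tested together. The pairs of regions are not independent of each other.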
